A study of Mus musculus with 401 samples.

Results

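Sfrp4, Abcb1b and Htra3 are 3 genes whose levels differed widely between single cumulus–oocyte complexes of the mouse ovary, 3 of the 43633 genes listed in either count table. They were chosen by measured levels in these same libraries, which had shown high values in a few complexes and differences between cumulus cells of mice of different ages, under calorie restriction and without hyperovulation, so their levels between groups are given below as descriptions, with no test. The working name for the 3 was luteal-like variable genes. In cumulus cells, 15 luteal genes could be compared, in a pool of 11612 genes. Of these 15, 6 were among the 116 genes most like Sfrp4 and 6 among those most like Abcb1b, against none for Htra3. In both sets, 5, 3 and 11 of the 15 correlated below 0 with Sfrp4, Abcb1b and Htra3.

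After ovulation the granulosa and theca cells of a follicle luteinize. They take up cholesterol, raise the enzymes that turn it into progesterone, and form the corpus luteum. Cumulus cells are the granulosa cells that surround the oocyte. Sfrp4 encodes a secreted frizzled-related protein, which binds Wnt ligands outside the cell and is known from rodent corpora lutea. Abcb1b encodes one of the mouse P-glycoproteins, pumps of the ATP-binding cassette (ABC) family that carry drugs, lipids and steroids out of cells and are abundant in steroid-producing tissues. Htra3 encodes a secreted serine protease of the HtrA family that acts on TGF-beta signalling and is known from decidua, placenta and ovary.

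In GRCm38, Sfrp4 (ENSMUSG00000021319) lies on the plus strand at chr13:19623104-19632994 and Htra3 (ENSMUSG00000029096) on the minus strand at chr5:35652023-35679782. Abcb1b (ENSMUSG00000028970) lies on the plus strand at chr5:8798147-8866315, between its close relatives Abcb1a at chr5:8660077-8748575 and Abcb4 at chr5:8893717-8959231. Sequence shared with relatives bears on the counts, because a read that maps to several places was shared between genes. Of the 4232 windows of 75 bases, the number of sequencing cycles, in the transcript Abcb1b-201, 12.4% also occur in Abcb1a and 0.567% in Abcb4. None of the windows of Sfrp4-203 or Htra3-201 occurs in the relatives compared (Sfrp1, Sfrp2, Sfrp5 and Frzb, and Htra1, Htra2 and Htra4). The longest run that Abcb1b shares base for base with Abcb1a is 338 bases of coding sequence in exons 13 and 14 of Abcb1b-201. It spans chr5:8824707-8825264 of the plus strand in GRCm38, with an intron between. Its 186 bases in exon 13 are shown because a read from them cannot be assigned to either gene:
Abcb1b and Abcb1a shared bases, chr5:8824707-8824892: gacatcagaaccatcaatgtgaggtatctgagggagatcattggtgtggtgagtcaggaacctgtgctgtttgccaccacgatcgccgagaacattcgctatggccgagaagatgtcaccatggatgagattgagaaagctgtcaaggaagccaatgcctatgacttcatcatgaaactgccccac
In the 322 libraries with a count above 0, 75.5% of the Abcb1b counts were not whole numbers, against 1 of 204 for Sfrp4 and 0 of 238 for Htra3. The not-whole share for Abcb1b was 94.5% and 90.6% in oocytes of the first and second sets, and 60.7% and 36.9% in cumulus cells. Part of the Abcb1b level therefore cannot be told apart from reads of Abcb1a and Abcb4, while the counts of Sfrp4 and Htra3 are almost free of such sharing.

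The 250 bases before the start are shown for Abcb1b and Htra3, whose levels lie on opposite sides between oocyte and cumulus cells, as read from RefSeq for GRCm38.p6 (2 of the 3 genes matched). They were searched on both strands for AAGGTCA (NR5A), TGACGTCA (cAMP response element), TGANTCA (AP-1), GGGCGG (SP1), CTTTGNT (TCF) and TTCNNNGAA (STAT), and the match is in capitals:
Abcb1b promoter, chr5:8797897-8798146, plus strand: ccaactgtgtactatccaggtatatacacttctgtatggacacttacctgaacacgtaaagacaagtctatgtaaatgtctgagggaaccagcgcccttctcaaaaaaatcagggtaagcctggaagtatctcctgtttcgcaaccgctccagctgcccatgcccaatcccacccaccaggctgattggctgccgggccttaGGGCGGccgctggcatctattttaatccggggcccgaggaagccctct
Htra3 promoter, chr5:35679781-35680030, minus strand: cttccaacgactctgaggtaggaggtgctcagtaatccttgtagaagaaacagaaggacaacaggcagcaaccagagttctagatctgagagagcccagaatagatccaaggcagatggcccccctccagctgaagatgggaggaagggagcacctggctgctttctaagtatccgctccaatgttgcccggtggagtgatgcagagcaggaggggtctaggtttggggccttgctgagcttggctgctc
The Abcb1b promoter held 1 SP1 match, 48 bases before the start, a motif in 32.7% of the 32817 promoters of this length. The Htra3 promoter held none of the 6 motifs, which occur in 4.08%, 1.55%, 6.75%, 32.7%, 16.0% and 7.02% of promoters in the order given. A match is a description of letters and not a bound site.

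RamDA-seq was applied to single oocytes and to the pool of cumulus cells taken from around each of them. It reads total RNA along the full length of transcripts. All mice were females of the hybrid B6D2F1 (C57BL/6 x DBA/2), and all complexes came from fully grown follicles with oocytes at the germinal vesicle (GV) stage. In the first set, Young (2 months), Middle (9 months) and Old (14 months) mice were fed ad libitum. CR mice were kept under calorie restriction from early adulthood to 9 months. All mice of this set were given hyperovulation before collection. The methods of the authors name equine chorionic gonadotropin or CARD HyperOva for hyperovulation, and the labels used here do not say which mouse received which. The second set covers ages of 2, 4, 9 and 14 months after hyperovulation, and a further group at 2 months collected without it. The first set holds 15 Young, 15 Middle, 16 Old and 25 CR cumulus libraries of 2, 4, 2 and 3 mouse labels, and 16, 14, 16 and 27 oocyte libraries. The second holds 24, 40, 16 and 16 cumulus libraries at 2, 4, 9 and 14 months of 5, 8, 4 and 5 mouse labels, and 32 without hyperovulation of 8 mouse labels, with 24, 39, 16, 16 and 32 oocyte libraries. The label Old1_2 joins 2 mice, and Middle3 gave a single cumulus library. Several libraries came from each mouse, so p-values below measure the spread between libraries, of which many share a mouse.

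Of the 401 libraries, 399 were used. A complex of Middle3 was left out because its oocyte library correlated at 0.938 with cumulus libraries and at 0.756 with oocyte libraries. Counts summed to 510029 to 2501005 per cumulus library and 559305 to 4536690 per oocyte library. CR libraries were deeper, with a median of 2019007 counts against 1091806 to 1288956 in the other cumulus groups of the first set. The summed level of 10 cumulus markers in Young, Middle, Old and CR oocyte libraries was, at the median, 0.794%, 1.59%, 3.19% and 1.24% of that in the median cumulus library of the set. It reached 19.8% in an Old library and at most 1.52% in the second set. Oocyte markers in cumulus libraries, measured likewise, reached at most 1.83%.

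Sfrp4 in cumulus cells was low in most complexes and very high in a few. Levels are TMM-normalised CPM, counts scaled to a common library total, and a library is at 0 where its count rounds to 0. In the first set the lowest, median and highest values were 0, 4.83 and 23.8 CPM in Young, 0, 6.14 and 170.3 in Middle, 0, 9.10 and 252 in Old, and 0, 3.70 and 40.5 in CR. The second set gave 0, 1.18 and 78.6 CPM at 2 months, 0, 2.33 and 86.3 at 4 months, 0, 3.9 and 637 at 9 months, 0, 3.30 and 30.5 at 14 months, and 0, 1.27 and 8.94 without hyperovulation. All 9 groups overlapped from 0 upward, and the groups differed far more in their highest libraries than in their medians. In bulk pools such as these, a change in the number of cells that express a gene and a change in RNA per cell cannot be told apart.

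The high Sfrp4 libraries came from few mice. In Middle4 the 4 cumulus libraries held 45.3, 57.8, 95.8 and 170.3 CPM, a mean of 92.3, and the single library of Middle3 held 37.2, while Middle1 and Middle2 averaged 3.42 and 6.84. The 11 libraries of Old1_2 ranged from 3.93 to 252 CPM with a median of 11, and the 5 of Old3 averaged 4.62. These 2 labels, Middle4 and Old1_2, held 80.1% and 95.3% of the summed Sfrp4 level of their groups. At 9 months, the 4 libraries of 9mo23 held 2.28, 6.47, 104 and 637 CPM, and those of 9mo21 held 4.28, 10.4, 12.3 and 129, while 9mo22 and 9mo24 averaged 1.72 and 3.32. Among younger mice, 2mo35 averaged 22.7 CPM against 0.616 to 2.17 in the other 2-month labels, and 4mo4 averaged 37.7 against 9.84 in the next, 4mo27. Complexes of the same mouse thus differed from each other as well.

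**Figure D1:**
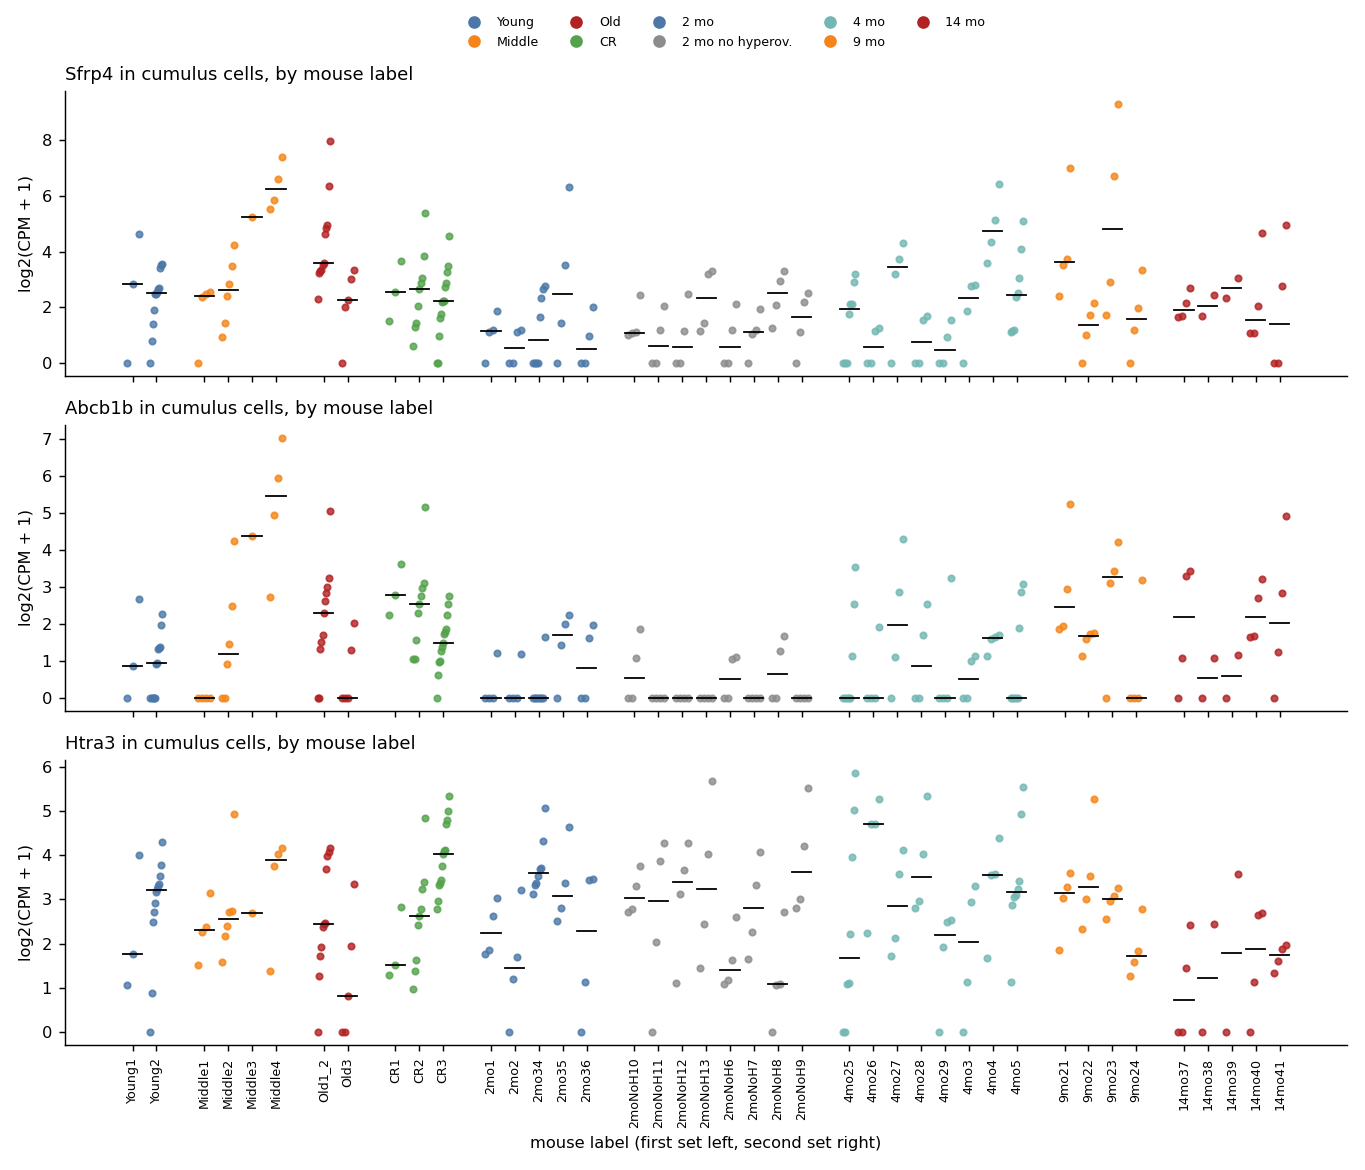
Levels of Sfrp4, Abcb1b and Htra3, as log2(CPM + 1), in each cumulus library (points, coloured by group) arranged by mouse label, with a black line at the median of each label. Sfrp4 stands high in all 4 libraries of Middle4, in 4mo4 (11.1 to 86.3 CPM) and in part of the libraries of Old1_2, 9mo21, 9mo23 and 2mo35, while Htra3 is spread over most labels.

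Abcb1b in cumulus cells was near the detection limit outside a few complexes. The lowest, median and highest values were 0, 0.884 and 5.42 CPM in Young, 0, 1.75 and 130.2 in Middle, 0, 2.04 and 32.0 in Old, and 0, 2.61 and 35.1 in CR. The second set gave 0, 0 and 3.74 CPM at 2 months, 0, 0 and 18.8 at 4 months, 0, 2.48 and 37.3 at 9 months, 0, 1.73 and 29.5 at 14 months, and 0, 0 and 2.65 without hyperovulation. Abcb1b was at 0 in 16 of 24, 21 of 40 and 26 of 32 cumulus libraries at 2 months, at 4 months and without hyperovulation, and in 4 of 16 at 9 and at 14 months. The 4 libraries of Middle4 held 5.66, 30.2, 61.3 and 130.2 CPM, against none above 0 in the 4 of Middle1, and held 83.5% of the summed level of their group. All groups overlapped, and the libraries above 30 CPM lay in Middle, Old, CR and 9 months.

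Htra3 in cumulus cells was detected more evenly. The lowest, median and highest values were 0, 8.04 and 18.7 CPM in Young, 1.59, 5.45 and 29.7 in Middle, 0, 3.54 and 16.9 in Old, and 0.970, 8.99 and 39.2 in CR. In the second set they were 0, 8.0 and 32.3 CPM at 2 months, 0, 7.05 and 57.4 at 4 months, 1.41, 6.94 and 37.3 at 9 months, 0, 1.88 and 11 at 14 months, and 0, 5.71 and 50.1 without hyperovulation. The medians at 14 months in both sets were the lowest of their set, and again all groups overlapped. Mouse labels differed here too, with means of 3.15, 7.28 and 17.2 CPM in CR1, CR2 and CR3 and of 3.05 to 22.9 among the labels at 4 months. The highest library of each set was a CR3 complex at 39.2 CPM and a 4mo25 complex at 57.4 CPM.

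Sfrp4 and Abcb1b were among the most concentrated genes of the cumulus libraries. The measure is the smallest number of libraries that together hold 50% of the summed CPM of a gene, and it is a description of the values that chose the genes. For Sfrp4, 5 of 71 first-set and 2 of 128 second-set libraries held that share, as few as in 3 of 7994 and 3 of 9075 genes of like or higher mean, Sfrp4 included, whose medians were 29 and 49 libraries. For Abcb1b the numbers were 4 and 9 libraries, as few as in 4 of 11094 and 48 of 14570 genes. For Htra3 they were 15 and 19, as few as in 130 of 10253 and 57 of 10008 genes, or 1.27% and 0.570%. The 10 highest libraries held 69.2% and 77.0% of the Sfrp4 total in the first and second sets, 73.4% and 54.4% of Abcb1b, and 39.9% and 34.7% of Htra3.

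**Figure D2:**
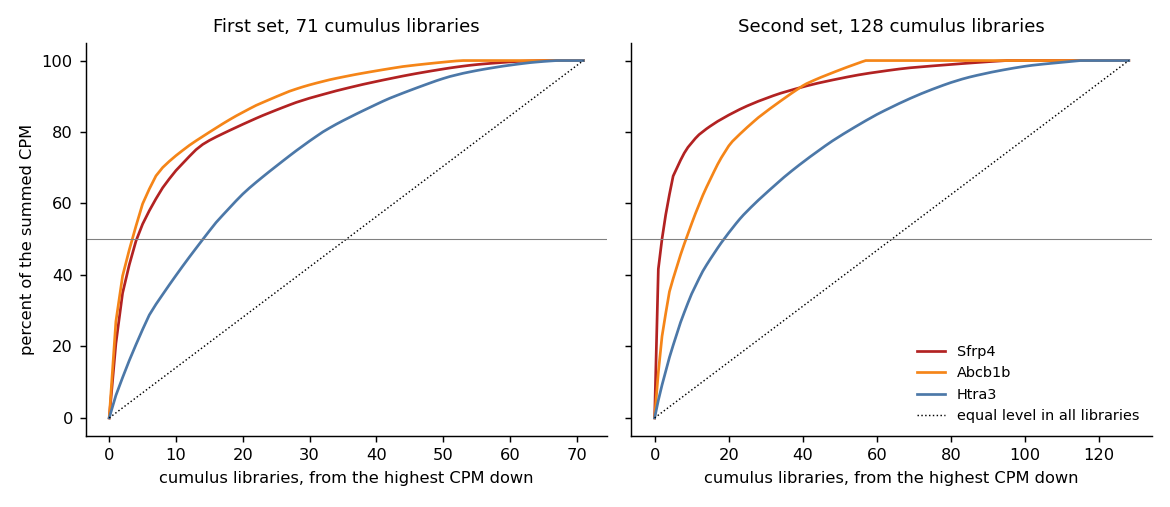
Percent of the summed CPM of each gene held by its cumulus libraries, counted from the highest down, in the first (71 libraries) and second (128 libraries) sets, with a grey line at 50% and a dotted line for equal levels. Sfrp4 passes 50% at 5 and 2 libraries, Abcb1b at 4 and 9, and Htra3 at 15 and 19.

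The differences between group means followed these few mice. Each comparison of the first set shares its Young or Middle libraries with another, and each of the second set shares the libraries at 2 months, so values are set side by side and not counted as repeats. From Young to Middle, mean Sfrp4 went from 6.08 ± 6.03 to 30.7 ± 47.3 CPM (SD, n = 15 and 15), a log2 ratio of 2.34 that became 0.46 without Middle4, and Abcb1b from 1.29 ± 1.62 to 18.2 ± 35.3 CPM, a log2 ratio of 3.81 that became 1.66. From Young to Old, Sfrp4 reached 30.6 ± 62.2 CPM (n = 16), a log2 ratio of 2.33 that turned to -0.39 without Old1_2, and Abcb1b 4.55 ± 7.82 CPM, a log2 ratio of 1.81 that turned to -0.53. From Middle to CR, Sfrp4 was lower at 6.72 ± 8.68 CPM (n = 25), a log2 ratio of -2.19 that became -0.31 without Middle4, and Abcb1b was 4.71 ± 6.87 CPM, a log2 ratio of -1.95 that turned to 0.20. The medians of Sfrp4 moved less than its means, with log2 differences of 0.29, 0.79 and -0.60 in the same order. For Abcb1b the medians gave 0.55, 0.69 and 0.39. From Middle to CR the Abcb1b median thus went up, from 1.75 to 2.61 CPM, while its mean went down. Htra3 had log2 ratios of 0.09, -0.39 and 0.57, which were -0.16 without Middle4, -1.56 without Old1_2 and -0.36 without CR3. Its medians moved more than its means, with log2 differences of -0.49, -0.995 and 0.63.

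In the second set, mean Sfrp4 was 4.98 ± 15.9 CPM at 2 months (n = 24), 7.70 ± 15.2 at 4 months (n = 40), 57.8 ± 159 at 9 months (n = 16) and 6.11 ± 8.71 at 14 months (n = 16). The log2 ratio of 9 to 2 months, 3.54, became 1.56 without 9mo23, and was 3.71 and 3.01 within the complexes named B1 and B2, a prefix whose meaning is not given in the labels. Without hyperovulation, Sfrp4 averaged 2.43 ± 2.66 CPM (n = 32), a log2 ratio to 2 months of -1.04 that turned to 0.75 without 2mo35 and was 0.67 within B1 and -2.31 within B2. For Abcb1b the means were 0.756 ± 1.19, 2.18 ± 3.81, 6.27 ± 9.54 and 4.82 ± 7.41 CPM at 2, 4, 9 and 14 months and 0.297 ± 0.683 without hyperovulation. The log2 ratios of Abcb1b to 2 months were 1.53, 3.05 and 2.67 at 4, 9 and 14 months, and each stayed above 1 without any 1 mouse label. Within B1 and B2 they were 2.59 and 0.73, 4.60 and 1.68, and 3.22 and 2.04. Htra3 averaged 8.57 ± 7.64, 12.2 ± 13.9, 8.01 ± 8.35 and 2.67 ± 2.95 CPM at these ages and 9.42 ± 11.5 without hyperovulation. Its log2 ratio of 14 to 2 months was -1.69, between -1.92 and -1.14 without any 1 mouse label, and -1.71 and -1.61 within B1 and B2. So 1 mouse label moved each of these Sfrp4 ratios by more than 1 on the log2 scale, and the Abcb1b ratios at 9 and 14 months and the Htra3 ratio at 14 months by less.

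Where these contrasts were fitted over all genes with edgeR's quasi-likelihood test, the members' own calls are printed beside the share of all genes called, and nothing is read from them, since such values chose the genes. Sfrp4 and Abcb1b were called from Young to Middle, where 1.46% of genes were, and from Middle to CR, where 3.6% were. Sfrp4 was called from Young to Old, where 3.96% of genes were. From 2 to 9 months, where 1.92% were, Sfrp4 and Abcb1b were called, and from 2 to 14 months, where 1.7% were, Abcb1b and Htra3. None of the 3 was called from 2 to 4 months (0.519% of genes) or without hyperovulation (13.2%).

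Part of the complexes with high Sfrp4 also held high Abcb1b. Of the 10 libraries with most Sfrp4, 7 in the first and 5 in the second set were among the 10 with most Abcb1b. Those 10 reached down to 7.68 and 8.24 CPM of Abcb1b. GVA036 and GVA037, with 252 and 80.5 CPM of Sfrp4, held 8.44 and 5.19 CPM of Abcb1b. Across cumulus libraries, log2(CPM + 1) of the pair correlated at r = 0.67 and 0.61 (rho 0.58 and 0.52, n = 71 and 128 libraries), and at 0.63 and 0.53 without the 2 libraries farthest from the median of Sfrp4. Htra3 shared 1 and 0 of its 10 highest libraries with Sfrp4 and 0 and 0 with Abcb1b, with r between -0.02 and 0.08 in the 4 comparisons. These libraries share mice, and depth and cell content can move all genes of a library, so these values describe the libraries and carry no p.

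Genes of steroid synthesis and of luteal cells were most like Sfrp4. Among 11611 other genes with a mean of at least 5 CPM in both sets, the highest mean correlation with Sfrp4 belonged to Cyp11a1 (r = 0.72 and 0.68), which makes the first cut in cholesterol on the way to steroids. Prlr, the prolactin receptor (0.73 and 0.52), and Lhcgr, the luteinizing hormone receptor (0.69 and 0.52), came next. They were followed by Lipg, endothelial lipase (0.58 and 0.51), and Star, which carries cholesterol into mitochondria (0.60 and 0.34). For Abcb1b they were Cyp11a1 (0.80 and 0.51), Sfrp4 itself, Lipg (0.64 and 0.44), Star (0.71 and 0.18) and Prlr (0.47 and 0.39). Of the 15 genes of the luteal list that could be compared, 6 lay in the top 116 places for Sfrp4 and 6 for Abcb1b, while 5 and 3 correlated below 0 in both sets. The luteal list thus did not move as a whole, and its summed level correlated at only 0.20 and 0.12 with Sfrp4.

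The same genes are given for single complexes. They were picked by their correlation with Sfrp4 over these same libraries, so their high values here add no separate support. In the Middle4 cumulus library GVM040, with 170.3 CPM of Sfrp4 and 130.2 of Abcb1b, Cyp11a1 was at 834 CPM, Lhcgr at 130.2, Prlr at 141 and Star at 206. The medians of all first-set cumulus libraries for these 6 genes were 5.55, 1.78, 18.0, 4.82, 25.5 and 11.6 CPM. The Old1_2 library GVA036, highest in Sfrp4 at 252 CPM, held 475 CPM of Cyp11a1 and 139 of Lhcgr, but only 8.44 of Abcb1b. In the second set, the 9mo23 library B2C05 held 637 CPM of Sfrp4, 1244 of Cyp11a1, 827 of Lhcgr, 452 of Prlr and 113 of Star, where the medians were 2.17, 5.0, 1.08, 21 and 11.8 CPM. Htra3 in these 3 libraries was 12.5, 4.22 and 7.37 CPM, against medians of 5.86 and 5.88. The 4mo4 and 2mo35 libraries highest in Sfrp4, at 86.3 and 78.6 CPM, also held 124 and 123 CPM of Cyp11a1 while Abcb1b was 2.01 and 3.74 CPM.

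**Figure D3:**
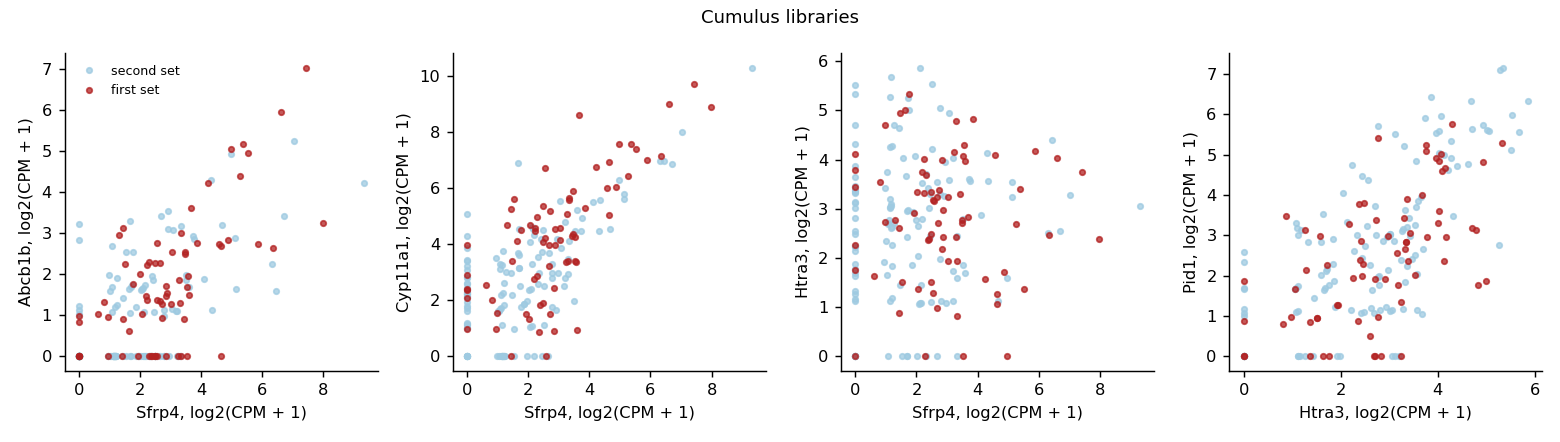
Levels as log2(CPM + 1) in single cumulus libraries of the first (red) and second (blue) sets, for Sfrp4 against Abcb1b, Cyp11a1 and Htra3, and Htra3 against Pid1. Libraries high in Sfrp4 are high in Cyp11a1 (r = 0.72 and 0.68) and in part in Abcb1b (0.67 and 0.61), and not in Htra3 (-0.02 and 0.08).

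Htra3 went with another group of genes. The 5 most like it were Pid1, a phosphotyrosine-binding adaptor (r = 0.58 and 0.70), Furin, a protease that matures secreted precursors such as those of the TGF-beta family (0.57 and 0.66), Itih5, of the inter-alpha-trypsin inhibitor heavy chains (0.50 and 0.72), Slc38a3, an amino acid transporter of cumulus cells (0.51 and 0.71), and Sh3pxd2a, a podosome scaffold (0.58 and 0.60). Tgfbr3, the co-receptor betaglycan, was at place 13 (0.44 and 0.70). It was the only 1 of 16 HtrA and TGF-beta regulators compared that lay in the top 116 places. Of these 16, 4 correlated above 0 and 6 below 0 with Htra3 in both sets. None of the 15 luteal genes lay in the top 116 places for Htra3, and 11 of the 15, as well as 13 of 16 follicular granulosa genes, correlated below 0 with it in both sets. Its correlation with Cyp11a1 was -0.04 and -0.01, and with Lhcgr -0.10 and -0.06. The name luteal-like is therefore not borne out for Htra3 in these cumulus cells.

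In cumulus libraries, the markers of other ovarian cells correlated with Sfrp4 at 0.27 or less. For stroma in the first set the value was 0.35 without the 2 libraries farthest from the median of the summed stromal markers. All 8 endothelial and all 8 leukocyte markers had a count in some library of each set, and their summed levels ranged from 1.19 to 43.7 and 1.59 to 35.4 CPM in the first set and 1.12 to 64.1 and 1.43 to 40.1 in the second. The 6 stromal markers ranged from 0 to 132 and 0 to 74.3 CPM, and the 8 theca markers from 63.9 to 478 and 98.7 to 414 CPM. Correlations of Sfrp4 with these sums were -0.08 and 0.03 for endothelium, 0.16 and 0.02 for leukocytes, 0.27 and 0.00 for stroma, and 0.17 and 0.20 for theca. Abcb1b correlated at 0.42 and -0.01 with stroma and Htra3 at 0.28 and 0.29 with theca and at -0.57 and -0.63 with red blood cell markers (6.03 to 116 and 0 to 138 CPM), and their part in these levels was not tested. Of the 5 red blood cell markers, only 1 had a mean of at least 5 CPM in both sets. Its mean correlation with Htra3 was -0.63, so the summed value may rest largely on that gene.

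In oocytes the 3 genes separated clearly. Abcb1b was a steady oocyte gene: its lowest, median and highest values were 56.6, 99.9 and 146 CPM in Young, 71.9, 102 and 148 in Middle, 52.1, 94.5 and 124 in Old, and 75.7, 96.0 and 113 in CR. The second set gave 75.5, 105 and 136 CPM at 2 months, 81.4, 101 and 137 at 4 months, 70.9, 113 and 145 at 9 months, 84.3, 117 and 132 at 14 months, and 77.5, 108 and 133 without hyperovulation. No oocyte was at 0, all groups overlapped, and the coefficient of variation within groups was 9.94% to 24.9%. In 32 of 73 and 57 of 127 oocytes lay 50% of its summed level, near the 31 and 59 of the median gene of like or higher mean. Abcb1b was higher in the oocyte than in its own cumulus cells in 70 of 70 and 127 of 127 complexes, also where the cumulus level was high.

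Sfrp4 was at or near 0 in most oocytes, with exceptions in Middle4 and Old1_2. It was at 0 in 13 of 16 Young, 8 of 14 Middle, 3 of 16 Old and 16 of 27 CR oocytes. The second-set oocytes were at 0 in all 24 at 2 months and in 34 of 39, 14 of 16, 15 of 16 and 31 of 32 at 4, 9 and 14 months and without hyperovulation, and never above 1.51 CPM. The Old1_2 oocyte GVA033 held 186 CPM and the Middle4 oocytes GVM040 and GVM037 held 119 and 83.8. The next was the Old1_2 oocyte GVA036 at 18.4 CPM. The cumulus cells of these 4 complexes held 8.43, 170.3, 57.8 and 252 CPM. The highest oocyte thus had a low cumulus mate, and GVM039 and B2C05, with 95.8 and 637 CPM in cumulus cells, had oocytes at 2.29 and 0 CPM.

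The 3 oocytes highest in Sfrp4 also held luteal genes. In GVA033, GVM040 and GVM037 oocytes, Cyp11a1 was at 366, 843 and 346 CPM, against a median of 2.36 in first-set oocytes, and Lhcgr at 101, 76.1 and 21.3 against a median of 0. The summed cumulus markers in these 3 oocyte libraries were at 3.8%, 14.9% and 1.77% of the median cumulus library, and at 9.55% in GVA036. The medians were 1.59% in Middle and 3.19% in Old oocytes. Among the 11 Old1_2 oocytes GVA033 is itself the median library, so that label gives no separate reference for it. The oocytes GVA034 and GVA041, with the cumulus markers at 19.8% and 11.7%, held 14.4 and 8.69 CPM of Sfrp4. Across the 73 first-set oocytes Sfrp4 correlated at r = 0.83 with the summed luteal list (rho 0.48, and r = 0.73 without 2 libraries), 0.69 with the stromal, 0.44 with the theca, 0.44 with the red blood cell and 0.41 with the cumulus markers. In the 127 second-set oocytes it correlated at 0.06 with the luteal list and 0.08 with the cumulus markers. Whether RNA or cells carried over from cumulus cells gave these values was not tested.

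**Figure D4:**
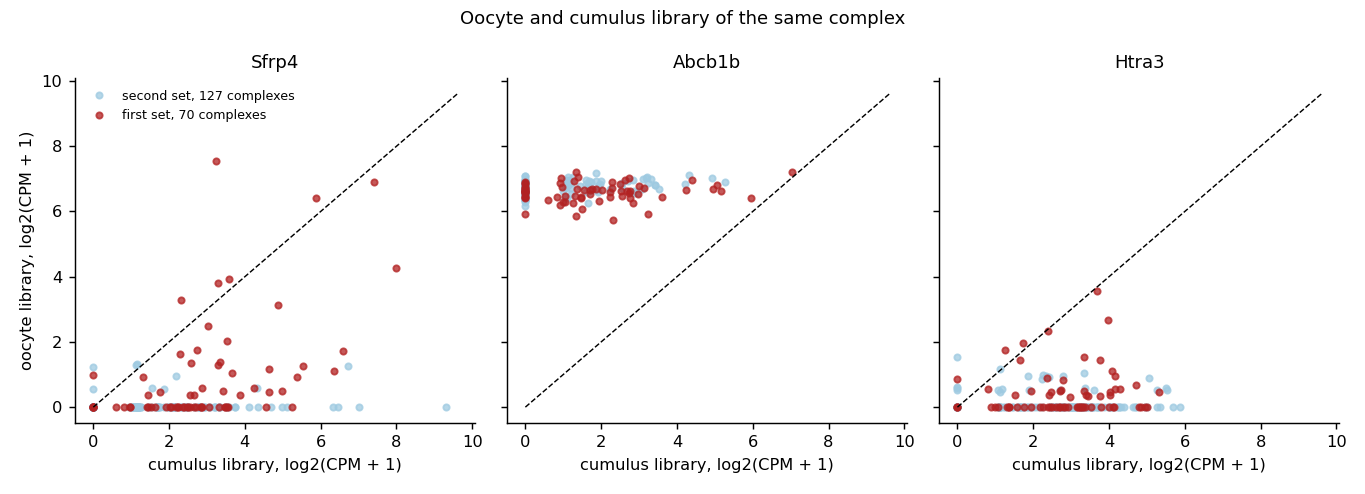
Levels as log2(CPM + 1) in the oocyte (vertical) and the cumulus cells (horizontal) of the same complex, for 70 first-set and 127 second-set complexes, with a dashed line of equal level. Every Abcb1b point lies above the line, and most Sfrp4 and Htra3 points lie below it, with the oocyte above its cumulus cells in 6 and 3 first-set complexes.

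Htra3 was at 0 in most oocytes outside the Old group, in 14 of 16 Young, 8 of 14 Middle, 4 of 16 Old and 16 of 27 CR oocytes. The highest values, 10.9, 5.39 and 4.05 CPM, were in the Old1_2 oocytes GVA041, GVA034 and GVA036, in which cumulus markers were at 11.7%, 19.8% and 9.55% of the median cumulus library. In the second set the highest oocyte held 1.90 CPM. Between oocyte and cumulus cells of the same complex, r was 0.50 and 0.05 for Sfrp4 (n = 70 and 127), 0.14 and 0.32 for Abcb1b, and 0.08 and -0.12 for Htra3. The value of 0.50 fell to 0.36 without 2 complexes. In the fits over all oocyte genes, Sfrp4 and Htra3 were called from Young to Old, where 7.39% of genes were, and Sfrp4 from Middle to CR, where 30% were. From 2 to 14 months (1.14% of genes called) and without hyperovulation (0.0299%, or 7 genes, with 1634 at an unadjusted p under 0.05), Sfrp4 was not tested, having a count in fewer than 5 libraries, and neither of the others was called. These calls are descriptions, as above.

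The contrast between cell types did not choose the genes, and Abcb1b, with counts in both, was tested. It was lower in cumulus cells than in oocytes, with log2 fold changes of -6.60 ± 0.26 (SE) in Young, -7.19 ± 0.17 at 2 months and -8.31 ± 0.15 without hyperovulation. The adjusted p-values of edgeR's quasi-likelihood test were 1.19e-23, 7.58e-43 and 6.81e-58. The 2 cell types differed at most genes, since 85.6%, 88.4% and 89% of all genes tested were called in these 3 contrasts, and the calls of Abcb1b are near that background. Without the label Young2, which leaves 3 cumulus libraries of Young1, Abcb1b was still called in Young.

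Sfrp4 and Htra3 entered these fits mainly through the cumulus libraries, where they are high, so their counts are given as a description with no test. In Young, the Htra3 counts summed to 139 in cumulus cells and 2 in oocytes, a ratio of CPM of 131 (95% exact interval 35.5 to 1088, for counting error only). At 2 months there were 186 and 6 counts, a ratio of 77.8 (35.1 to 215), and without hyperovulation 253 and 7, a ratio of 82.9 (39.7 to 208). Sfrp4 in Young had 104 counts in cumulus cells and 6 in oocytes, a ratio of 32.5 (14.5 to 90.7). At 2 months the 24 oocytes held no count and the cumulus libraries 119, which is at least 99.6-fold higher against a floor of 3 counts over the group. That fold rests largely on the label 2mo35, which averaged 22.7 CPM in cumulus cells against 1.45 in the rest of the group. Without hyperovulation the cumulus libraries held 68 counts and the oocytes 3, a ratio of CPM of 52.0 (17.1 to 258).

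Compared per length, Abcb1b was the main P-glycoprotein gene in oocytes. Group means of oocytes were 11.6 to 14.5 CPM per kilobase for Abcb1b, 1.14 to 1.49 for Abcb1a and 1.47 to 2.35 for Abcb4, which exports phospholipid. In cumulus cells they were 0.0372 to 2.27 for Abcb1b, 0 to 0.338 for Abcb1a and 0 to 0.0752 for Abcb4. Not-whole counts made up 89.2% for Abcb1a and 74.6% for Abcb4, so the split between the 3 neighbours is uncertain. Sfrp4 had group means of 0.582 to 13.8 CPM per kilobase in cumulus cells. In each of the 9 groups its mean was above those of Frzb (0.326 to 1.13) and Sfrp1 (0.0506 to 0.920). Sfrp2 and Sfrp5 were at most at 0.0636 and 0.0911. A few libraries carried the Sfrp4 means, and the medians ranked differently. The Sfrp4 median was below that of Frzb at 2 months (0.284 against 0.317) and in CR (0.886 against 1.14). It was above that of Frzb in the other groups. Htra3 was a minor member of its family, with 0.601 to 2.76 CPM per kilobase in cumulus cells against 174 to 236 for Htra1, a secreted relative, and 4.66 to 6.16 for the mitochondrial Htra2. Htra4 was an oocyte gene, at 11.9 to 20.8 in oocytes and 0.0449 to 0.391 in cumulus cells.

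**Figure D5:**
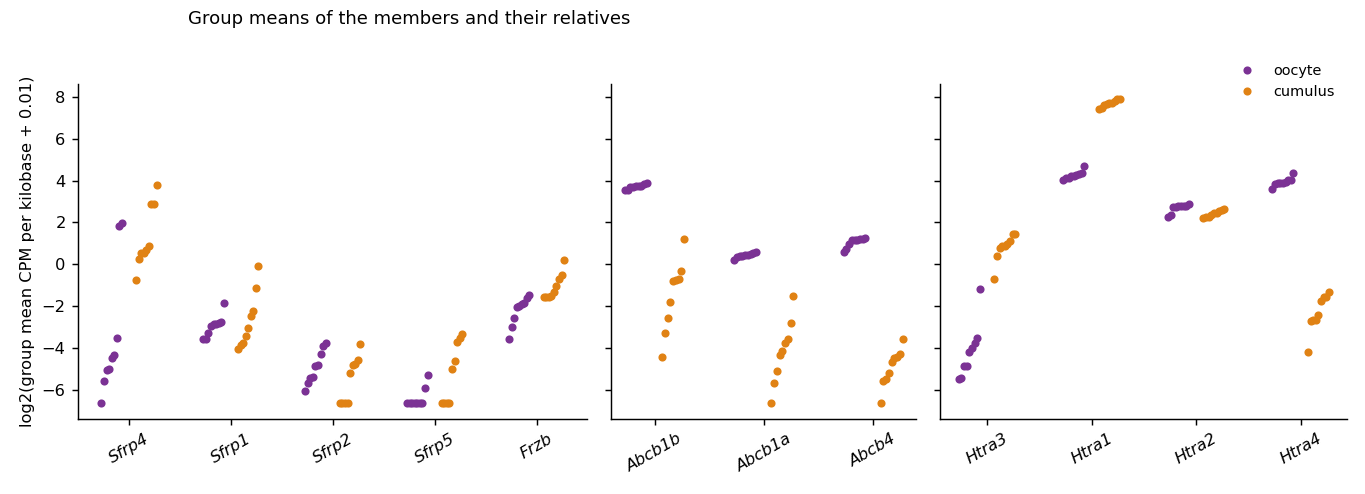
Group mean levels per gene length, as log2(CPM per kilobase + 0.01), of the members and their relatives, with 9 oocyte (purple) and 9 cumulus (orange) groups per gene ordered by value. Abcb1b and Htra4 are high in oocytes, Htra1 is the highest in cumulus cells, and the cumulus group means of Sfrp4 span 0.582 to 13.8.

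Luteal genes other than the members were tested in the same contrasts. The list was chosen with earlier results of these data known, and several of its genes were those most like Sfrp4. Their calls and p-values, here and below, are therefore descriptions. In cumulus cells, 0 of 20 were called from Young to Middle (331 genes were called in all by edgeR, 3274 at an unadjusted p under 0.05) and the list's median log2 fold change was 0.25, against 0.04 over all genes. From Young to Old, 2 rose and 1 fell, among them Star from 9.57 to 26.9 CPM (log2 fold change 1.5 ± 0.39, edgeR adjusted p = 0.0213), a call lost without Old1_2 or Young2 and a fold change that reached -0.41 with 1 label left out. From Middle to CR, 1 rose and 4 fell, with Lhcgr from 27.7 to 6.73 CPM (-2.02), lost without Middle4 or CR3 and between -2.69 and 1.02 with 1 label left out. The list's median was 0.08 and -0.47 in these contrasts, against 0.04 over all genes in both. Of all genes, 1.46% were called from Young to Middle, 3.96% from Young to Old and 3.6% from Middle to CR.

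From 2 to 9 months, where 1.92% of all genes were called, 6 of 20 luteal genes rose and none fell (median 0.20, all genes 0.04). Lhcgr rose from 3.69 to 68.3 CPM (log2 fold change 4.07 ± 0.77, edgeR adjusted p = 0.00171), Cyp11a1 from 8.63 to 109 (3.55 ± 0.70, p = 0.00299) and Fdx1, ferredoxin, which feeds electrons to Cyp11a1, from 37.9 to 114 (1.60 ± 0.31, p = 0.00215). The first 2 calls were lost without 9mo23, the mouse with most Sfrp4, and that of Cyp11a1 also without 2mo34. Those of Lhcgr, Cyp11a1 and Fdx1 were all lost with counts summed per mouse label. From 2 to 14 months only Lhcgr rose, from 3.69 to 20.4 CPM (2.38 ± 0.60, p = 0.0273), a call lost without 5 of the 10 mouse labels, and 0 of 20 were called from 2 to 4 months (129 genes in all by edgeR, 3279 at an unadjusted p under 0.05). Of all genes, 1.7% were called from 2 to 14 months and 0.519% from 2 to 4 months. Without hyperovulation, where 13.2% of all genes were called, 1 luteal gene rose and 3 fell. The log2 fold changes were 0.62 for Star and -0.89 and -0.78 for Mgarp and Vegfa.

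In oocytes, 8 of 20 luteal genes rose from Young to Old (median log2 fold change 1.44), where 7.39% of all genes were called, with Cyp11a1 from 2.06 to 57.3 CPM (4.71). Beside them 5 of 16 follicular granulosa genes rose (median 0.92) and 2 of 10 cumulus markers (median 1.07), and the median cumulus marker level of these libraries went from 0.794% to 3.19%. The part of these cells in the luteal calls was not tested. Without Old1_2 or Young2 the Cyp11a1, Star and Hsd3b1 calls were lost. From Middle to CR, where 30% of all genes were called, 11 of 20 luteal genes fell, and so did 4 of 5 stromal markers. Cyp11a1 went from 88.5 to 4.83 CPM (-4.16), but the labels of Middle ranged from a mean of 0.595 CPM in Middle2 to 306 in Middle4. Without Middle4 only 2 luteal genes were called and the fold change of Cyp11a1 turned to 1.53, and with counts summed per mouse label its call was lost.

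Genes of the pathways around the members were counted in the same contrasts. These lists were chosen likewise, so their calls and p-values are descriptions too. Of 28 to 31 Wnt pathway genes tested in cumulus cells, 0 were called from Young to Middle and from 2 to 4 months, and 1 or 2 in the other age and diet contrasts, where 1.7% to 3.96% of all genes were called, with Rnf43, a membrane ligase that removes Wnt receptors, from 3.49 to 8.14 CPM at 9 months (1.18 ± 0.32, edgeR adjusted p = 0.0434), a call lost without 6 of the 9 mouse labels. Without hyperovulation, where 13.2% of all genes were called, 3 rose and 4 fell of 30. The transcription factor Tcf7l2 went from 50.6 to 118 CPM (1.20 ± 0.16, edgeR adjusted p = 5.33e-07). Of the ABC transporters, 2 of 13 rose from Young to Middle, where 1.46% of all genes were called. From Middle to CR, where 3.6% were, 2 of 13 rose. In the first contrast Abcc5 was up by 0.62, and in the second Abcb10 and Abcc1 by 0.88 and 0.50 on the log2 scale. All 3 calls were lost without some mouse labels, Middle2 among them. Of 19 HtrA and TGF-beta regulators, 2 fell from 2 to 14 months, where Htra3 was lowest and 1.7% of all genes were called. Tgfb3, a TGF-beta ligand, went from 54.8 to 24 CPM (-1.15 ± 0.24, p = 0.00458) and Tgfbr3 from 91.8 to 49.0 (-0.89 ± 0.18, p = 0.00442), a call kept in 14 of 14 alternative fits. Slc38a3, among the genes most like Htra3, fell from 27.4 to 4.77 CPM in that contrast (-2.50 ± 0.55, p = 0.00885), a call lost without 14mo37. It rose to 142 CPM without hyperovulation (2.29 ± 0.46, p = 0.000348), where Htra3 had a log2 ratio of 0.14. Without hyperovulation, with its 13.2% of all genes called, 3 of 20 regulators rose and 3 fell. Among them Grem1, a BMP antagonist, went from 379 to 105 CPM (-1.84).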

How the data were processed

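The 146 libraries of the first and 255 of the second set were sequenced single-end for 75 cycles, without molecular identifiers. Per the labels and the methods of the authors, HISAT2 2.0.5 placed the trimmed reads on GRCm38 and featureCounts 1.5.1 counted them over the GENCODE vM15 annotation. The values the authors deposited are expected counts, since reads that mapped to several places were shared, and 36.8% and 35.1% of the nonzero values were not whole. They were rounded before testing. The authors also deposited RPKM values, of which only the gene lengths of the second set were used here. The design had assumed plain counts.

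Groups were taken from the labels of age and diet. Normalisation (TMM) and tests used edgeR 4.0.16 in R 4.3.3 (quasi-likelihood F test, pairs of groups, genes counted in 5 or more libraries of the pair, Benjamini-Hochberg at 5%). Levels and correlations used Python 3.11.15 with numpy 2.4.6, pandas 2.3.3 and scipy 1.17.1, with a pseudocount of 1 CPM. The test was checked on simulated data. No 2 libraries were duplicates, the highest correlation between any pair being 0.989. The members and the 13 gene lists were chosen with earlier results of these data known. Besides the 3 members and their relatives, the text names at most 3 genes per list and contrast, those with the largest change among called genes of at least 5 CPM, and the 5 genes with the highest mean correlation over both sets. Other genes named, such as Tgfbr3 beside Htra3, were chosen after their values were seen. Alternatives were DESeq2 1.42.0, no filter, counts summed per mouse label, all deposited libraries, the name prefix as a covariate, each mouse label left out, other scalings and the complex as a block. Oocyte and cumulus libraries of a complex are paired by the labels, as they come from the same follicle.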

Additional observations from a re-analysis of the deposited data

Results flagged for a closer look

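Means per mouse label were compared within each group of 4 to 10 labels, and a label was singled out where its gap to the nearest other, as a share of the group's whole range, passed Dixon's 95% limit. Of 35 groups of labels 7 were singled out, 5 of them for Sfrp4. Chance would single out about 1 in 20 groups, but the genes were chosen for high values in few complexes, so the count is a description and is not read against chance. In Middle oocytes the label Middle4 averaged 51.6 CPM against 0.518 in the next, a gap of 0.990 of the range. In cumulus cells at 2 months, 2mo35 averaged 22.7 CPM against 2.17 (0.930), and at 4 months, 4mo4 averaged 37.7 against 9.84 (0.752). In oocytes, 14mo41 at 14 months and 2moNoH9 without hyperovulation averaged 0.332 and 0.364 CPM where the other labels were at 0, so the gap is the whole range (1) and rests on 1 library each. Abcb1b in cumulus cells at 4 months was highest in 4mo27, at 6.55 CPM against 2.11 (0.739). Htra3 in oocytes without hyperovulation was highest in 2moNoH7, at 0.507 CPM against 0.135 (0.733).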

How the results depend on the processing

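The log2 ratios of group means of Sfrp4 depended on single mouse labels. With each label left out in turn they ranged from 0.46 to 2.94 from Young to Middle, -0.39 to 2.80 from Young to Old, -2.80 to -0.31 from Middle to CR, -0.19 to 2.41 from 2 to 4 months, -0.066 to 2.08 from 2 to 14 months and -1.39 to 0.75 without hyperovulation. For Abcb1b they ranged from 1.66 to 4.41, -0.53 to 2.26 and -2.55 to 0.20 in the first 3 of these. The Sfrp4 ratio without hyperovulation was also 0.67 within prefix B1 and 0.45 without the highest library, and the Abcb1b ratio 0.28 within B1 and -2.84 within B2. Within B1 and B2, Sfrp4 was 2.79 and -1.95 from 2 to 4 months and Abcb1b 4.60 and 1.68 from 2 to 9 months, and without its highest library Sfrp4 was 1.78 from 2 to 14 months. These last alternatives were chosen after seeing the data. In the first set no label separates batch from group, so the 2 cannot be told apart there. For Htra3 the 91 alternatives moved its ratios by less than 1 SD, but with each label left out they ranged from -0.16 to 0.38 from Young to Middle, -1.56 to -0.067 from Young to Old, -0.36 to 0.86 from Middle to CR, -0.57 to 0.45 from 2 to 9 months and -0.087 to 0.68 without hyperovulation, a change of sign in all of these but Young to Old.

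Summing counts per mouse label took the called list genes from 4 to 0 (Young to Middle), 11 to 0 (Young to Old), 21 to 0 (Middle to CR), 3 to 0 (2 to 4 months), 11 to 0 (2 to 9 months), 12 to 1 (2 to 14 months) and 36 to 6 (without hyperovulation) in cumulus cells. In oocytes it took them from 24 to 0 (Young to Old), 57 to 15 (Middle to CR), 9 to 3 (2 to 14 months) and 1 to 0 (without hyperovulation, also 0 by DESeq2), with fewer samples in each fit. Leaving out each label gave 0 to 20, 0 to 12, 9 to 22, 0 to 6 and 3 to 13 in the first 5 cumulus contrasts and 0 to 49 in oocytes from Young to Old, where the count was 0 without Old1_2 and 49 without Old3. From Middle to CR in oocytes, tried after seeing the data, it gave 33 to 61, the lowest without Middle4. It was 0 without Middle4 from Young to Middle and 0 without Old1_2 from Young to Old in cumulus cells.

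From oocyte to cumulus cells Abcb1b kept its direction and call in every alternative run. In Young 1 to 3 members were called with a label left out, since Sfrp4 and Htra3 were not tested without Young2, having a count in fewer than 5 libraries. With the complex as a replicate block the log2 fold changes were 4.15, -6.75 and 5.34 for Sfrp4, Abcb1b and Htra3 in Young, those of Sfrp4 and Htra3 as descriptions, and the block changed no call. Levels of 1 or 2 CPM in cumulus libraries rest on a few counts each, so Abcb1b at 0 there means not detectable at this depth.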
